A study of Homo sapiens with 6 samples.

Results

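The extracellular matrix, the integrins that bind it and the proteases that cut it were examined in Hep3B cells, a line from human hepatocellular carcinoma, after knockdown of NXN (nucleoredoxin, a redox-active protein). The group was a list of 53 genes chosen by name, and all 53 were among the 23406 features of the deposited tables. The 6 RNA sequencing libraries comprised 3 from shControl and 3 from shNXN cells, with 1 library of each group from day 7, day 9 and day 11. Both groups carried a lentiviral shRNA vector and had been selected in puromycin. The labels give the genotype of shControl as WT and that of shNXN as NXN knockdown. The labels name 1 cell line and 1 shNXN condition, and they do not say whether the 3 libraries of a group came from separate transductions, so that p-values measure the spread between these libraries only. The 3 libraries of a group are also 3 days, and their spread therefore includes any change over time.

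Cells meet 2 kinds of matrix. The basement membrane is a thin sheet of type IV collagen, laminins, nidogen and the proteoglycans perlecan and agrin on which epithelial cells rest, whereas interstitial matrix is built from fibrillar collagens, mostly made by fibroblasts and, in the liver, by stellate cells. Integrins are pairs of an alpha and a beta chain that bind laminin, collagen or fibronectin outside the cell and the actin cytoskeleton inside it, and syndecans are transmembrane proteoglycans that bind the same ligands. Membrane-type metalloproteases and ADAM proteases cut matrix and surface proteins, TIMPs inhibit them, and lysyl oxidases crosslink collagen. The study asked how NXN affects invasion and metastasis of liver cancer cells, processes in which these genes take part.

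The libraries held 15349382 to 16332589 estimated counts. NXN, the target (chr17:799313-979770, minus strand, GRCh38), was at 181, 138 and 143 CPM (counts scaled to library size with TMM factors) on days 7, 9 and 11 in shControl and at 42.7, 47.5 and 39.5 CPM in shNXN, a log2 fold change of -1.83 (standard error, SE, 0.16, edgeR adjusted p = 0.0378). With 1 library left out it lay between -1.90 and -1.67, and the call was lost without shControl day 7 (edgeR adjusted p = 0.131), shControl day 11 (0.0633), shNXN day 7 (0.225) or shNXN day 9 (0.162). In those fits no feature of the whole table was called. Within each group, the day 11 library stood farther from the others (chi-square per feature 49.2 to 77.8) than days 7 and 9 did from each other (20.1 and 30.8). All 9 hepatocyte markers were at 1 FPKM or more (fragments scaled to transcript length and library depth). Their summed level was 6960 to 15700 FPKM in shControl and 3030 to 7980 FPKM in shNXN, and these ranges overlapped. ALB was the highest of the 9 on average, at 4880 FPKM, and ran from 488.55 to 12145.2 FPKM over the libraries. The sum therefore moved mostly with ALB. Its part in the results below was not tested. The 4 epithelial markers summed to 1880 to 5000 FPKM in shControl and 2680 to 4100 FPKM in shNXN. Of 7 fibroblast and stellate markers, 5 were below 1 FPKM, THY1 and POSTN among them at 0, and the 7 summed to 4.63 to 5.38 FPKM in shControl and 2.56 to 7.14 FPKM in shNXN. No endothelial marker reached 1 FPKM, with VWF and KDR at 0. The leukocyte markers CD3E and PTPRC were at or near 0, and the 4 leukocyte markers, mostly through CD68, summed to 46.9 to 53.1 FPKM in shControl and 59.9 to 76.8 FPKM in shNXN.

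The members called between the groups with the day as a block differed in the GC content of their transcripts, and stretches of 5 are shown. ITGA6 was the member also called without the block. The others were picked from the lowest and highest GC contents among those called. Each is the 60-base window of the coding sequence whose GC content is closest to that of the whole longest transcript (GENCODE 29, GRCh38, coding strand), with every G and C in capitals. The first 3 genes were lower and the last 2 higher in shNXN when the day was taken into account.
ITGB8, exon 3, chr7:20367021-20367080, plus strand, 38.3% GC: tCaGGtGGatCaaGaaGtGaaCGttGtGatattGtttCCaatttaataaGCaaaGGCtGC
ITGAV, exon 7, chr2:186636088-186636147, plus strand, 38.3% GC: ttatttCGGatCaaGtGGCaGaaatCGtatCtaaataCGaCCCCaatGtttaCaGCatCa
ITGA6, exon 4, chr2:172469127-172469186, plus strand, 43.3% GC: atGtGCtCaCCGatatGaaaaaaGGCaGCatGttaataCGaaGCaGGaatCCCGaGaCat
MMP15, exon 2, chr16:58037495-58037554, plus strand, 66.7% GC: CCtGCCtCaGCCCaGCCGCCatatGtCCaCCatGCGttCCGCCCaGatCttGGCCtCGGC
AGRN, exon 4, chr1:1040732-1040791, plus strand, 68.3% GC: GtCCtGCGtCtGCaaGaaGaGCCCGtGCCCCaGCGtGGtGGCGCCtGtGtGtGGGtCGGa

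Hep3B cells made a basement membrane and fibronectin matrix at the RNA level, with little interstitial collagen. Averaged over the 6 libraries, 30 of the 53 members were at 10 FPKM or more, 10 were at 100 FPKM or more and 17 were below 1 FPKM. FN1, which encodes fibronectin, was highest at 707 FPKM and ranked 118 of all features. It was followed by ITGB1 at 235, SDC4 at 225, AGRN at 176, THBS1 at 156, SDC2 at 149, LAMC1 at 138, MMP14 at 134, COL18A1 at 103 and ITGB5 at 101 FPKM. The ranges over the libraries of ITGB1 (150.16 to 421.64 FPKM) and SDC4 (160.05 to 338.34 FPKM) overlapped, as did those of the members from THBS1 to ITGB5, so their order is not resolved beyond their spread. FN1 was above every other member in every library, at 667.71, 691.42 and 581.65 FPKM in shControl and 851.38, 733.05 and 718.04 FPKM in shNXN on days 7, 9 and 11.

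**Figure D1:**
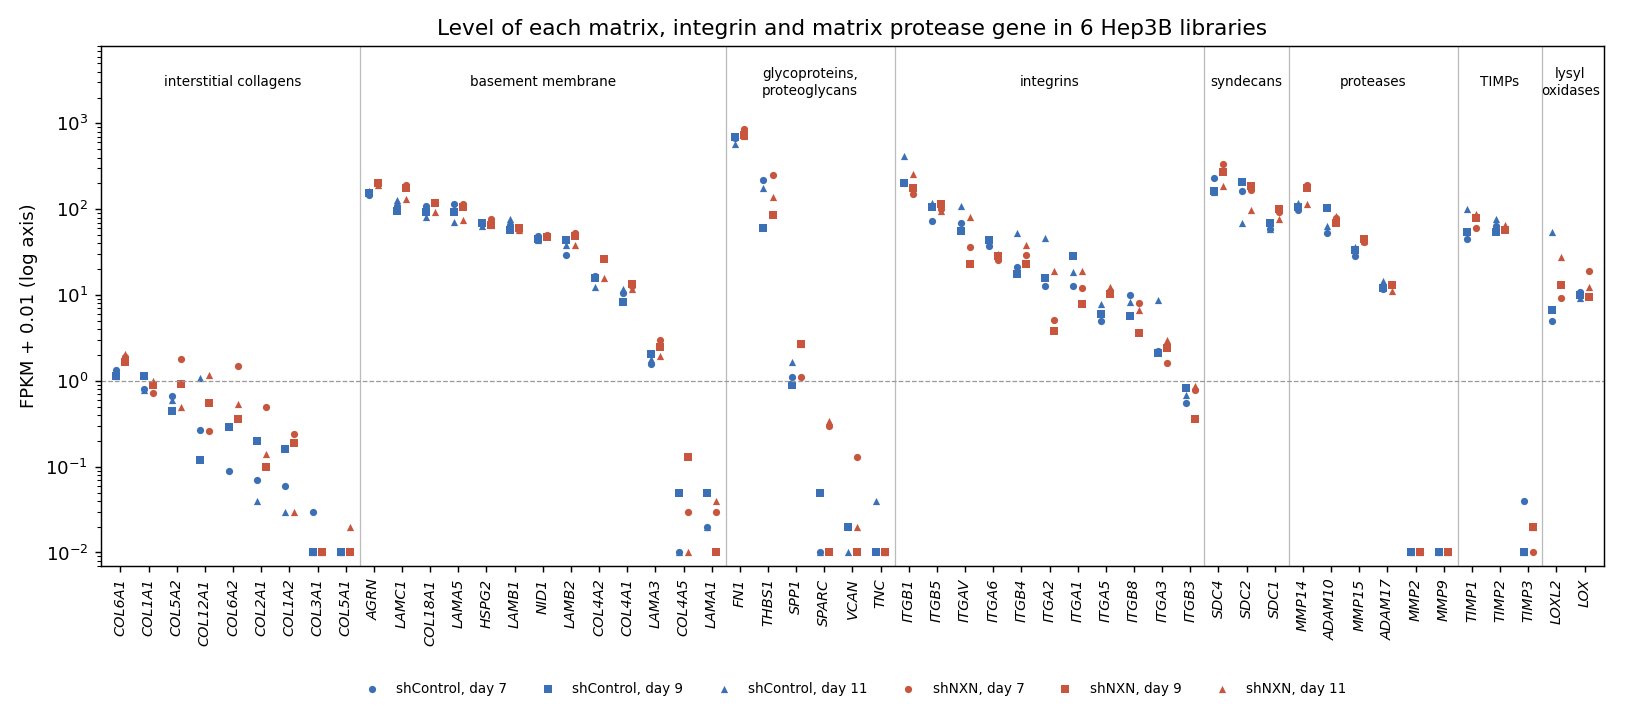
Level of the 53 members in each of the 6 libraries, grouped by role and ordered by mean within a role, as FPKM + 0.01 on a log axis, with a dashed line at 1. Blue marks are shControl and red marks shNXN, circles, squares and triangles are days 7, 9 and 11. Basement membrane genes, integrins and syndecans lie mostly above the line and the interstitial collagens lie near or below it, with MMP2 and MMP9 at 0 in every library.

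Of the 13 basement membrane genes, 11 were expressed and passed the count filter. AGRN (agrin) was at 146.90, 153.27 and 163.72 FPKM in shControl and 196.07, 200.37 and 193.88 FPKM in shNXN. The chains of laminin-511, a major epithelial laminin, were all present, with LAMC1 (gamma 1) at 138, LAMA5 (alpha 5) at 95.8 and LAMB1 (beta 1) at 62.8 FPKM on average. LAMB2, the alternative beta 2 chain, averaged 41.6 FPKM, and LAMA3, the alpha chain of laminin-332, averaged 2.13 FPKM. HSPG2 (perlecan) at 68.2 FPKM and NID1 (nidogen 1) at 47.6 FPKM varied little between libraries, from 64.40 to 76.28 and from 43.35 to 50.52 FPKM. COL4A1 and COL4A2, the 2 most widespread type IV collagen chains, averaged 11.4 and 18.9 FPKM, while COL18A1, the precursor of endostatin, averaged 103 FPKM. LAMA1 and COL4A5 had 17.12 and 5 counts over all 6 libraries.

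COL4A1 and COL4A2 are transcribed away from each other from a shared promoter, shown here because both chains enter the same collagen molecule and their levels are compared below. The 126 bases between their RefSeq starts (GRCh38.p14, chr13:110307158-110307283, plus strand) were 80.2% GC, and capitals mark a CCAAT and a GGGCGG.
COL4A1 to COL4A2: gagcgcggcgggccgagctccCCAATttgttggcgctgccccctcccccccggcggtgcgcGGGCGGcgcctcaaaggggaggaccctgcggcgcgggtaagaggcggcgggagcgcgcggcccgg
Promoter windows (250 bases before to 50 after a start) were found in RefSeq for 37 of the 53 members, 47 windows in all. GGGCGG, on either strand, was in 80.9% of these windows against 45.0% of all 35116 windows in the table. CCAAT was in 25.5% against 34.6%, TATAAA in 8.51% against 11.5%, and TGACTCA in 4.26% against 4.95%. These are counts of letters in the windows and no binding was measured. The annotated COL4A1 (chr13:110148963-110307233) and COL4A2 (chr13:110305812-110513209) overlap at their starts, and whether the counting used strand is not given in the sources used here, so reads from the overlap cannot be told apart.

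Among the 9 interstitial collagens, none averaged 2 FPKM. COL6A1 was highest at 1.53 FPKM, with 1.32, 1.14 and 1.13 FPKM in shControl and 1.91, 1.63 and 2.02 FPKM in shNXN on days 7, 9 and 11. COL1A1, the alpha 1 chain of type I collagen, averaged 0.88 FPKM, and its partner COL1A2 averaged 0.108 FPKM and did not pass the filter. COL5A2 averaged 0.813 FPKM. COL3A1 and COL5A1 had 1 count each over the 6 libraries. Levels of this size rested on 145 to 437 counts in total for the 5 interstitial collagens that passed, and 3 counts, the limit that a count of 0 allows, corresponded to 0.184 to 0.195 CPM in these libraries. That limit and the intervals of low genes cover counting error only.

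Apart from FN1, the matrix glycoproteins were represented by THBS1 (thrombospondin 1), which averaged 156 FPKM, and by SPP1 (osteopontin), which averaged 1.69 FPKM. SPARC, TNC (tenascin C) and VCAN (versican) had 5, 2 and 7 counts over all libraries and did not pass the filter.

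All 11 integrin chains passed the filter. ITGB1, the beta chain shared by most laminin, collagen and fibronectin receptors, averaged 235 FPKM, above every alpha chain. ITGAV at 62.7 FPKM and ITGA6 at 34.9 FPKM were the leading alpha chains, followed by the collagen receptor chains ITGA2 at 17.1 and ITGA1 at 16.5 FPKM. ITGA5, the alpha chain of the main fibronectin receptor, averaged 8.78 FPKM and ITGA3, a laminin receptor chain, 3.33 FPKM. Of the beta chains that pair with ITGAV, ITGB5 averaged 101, ITGB8 7.06 and ITGB3 0.668 FPKM. ITGB4, which pairs with ITGA6 in hemidesmosomes, averaged 30.4 FPKM. The 3 syndecans SDC4, SDC2 and SDC1 averaged 225, 149 and 75.9 FPKM.

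Proteases of the cell surface were present and the secreted gelatinases were not detected. MMP14, a membrane-type metalloprotease that activates pro-MMP2, averaged 134 FPKM, ADAM10 75.0, MMP15 37.9 and ADAM17 12.7 FPKM. MMP2 and MMP9, the gelatinases, had 0 counts in all 6 libraries. TIMP1 and TIMP2 averaged 71.2 and 62.7 FPKM, and TIMP3 was at 0.03, 0.00 and 0.00 FPKM in shControl and 0.00, 0.01 and 0.01 FPKM in shNXN. LOXL2 averaged 19.3 and LOX 11.8 FPKM.

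In shNXN against shControl cells, 41 members passed the filter on low counts, and the other 12 were COL1A2, COL2A1, COL3A1, COL5A1, COL4A5, LAMA1, SPARC, TNC, VCAN, MMP2, MMP9 and TIMP3. ITGA6, the alpha 6 laminin receptor chain, was the 1 member to pass edgeR's quasi-likelihood test at an adjusted p of 0.05, and it was lower in shNXN. Over all 14071 features tested, 3.39% were called, 0.185% higher and 3.21% lower. At an unadjusted p under 0.05 there were 8 members, against 32.9% of all features. The median log2 fold change of the 41 members was 0.12, with 26 above 0 and 15 below, and the median of all tested features was 0.03. In these bulk libraries fewer cells expressing a gene and less RNA per cell cannot be told apart.

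ITGA6 (chr2:172427354-172506282) was at 186, 166 and 207 CPM in shControl and at 88.1, 89.9 and 119 CPM in shNXN on days 7, 9 and 11. All 3 shNXN values lay under all 3 shControl values. Its log2 fold change was -0.91 (SE 0.17, edgeR adjusted p = 0.0465), and -0.92 with the day as a block (edgeR adjusted p = 0.0147). The call was lost in 5 of the 6 fits that left out 1 library, where its log2 fold change lay between -1.06 and -0.78, and it held without the shNXN day 11 library (edgeR adjusted p = 0.00382). ITGB4, the partner chain of ITGA6 in hemidesmosomes, was at 72.6, 89.4 and 225 CPM in shControl and at 108, 108 and 177 CPM in shNXN. Its log2 fold change was 0.02 (edgeR adjusted p = 0.973). That of ITGB1, the beta chain shared by most laminin receptors, was -1.19 (edgeR adjusted p = 0.202), or -1.45 with the block (0.022).

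Replicate numbers follow the days, and taking the day as a block raised the members called from 1 to 10, with 23.3% of all features called, 6.28% higher and 17.0% lower. The 6 lower members were the integrin chains ITGA2, ITGA6, ITGAV, ITGB1 and ITGB8 and the protease ADAM10. The 4 higher members were ITGA5, SDC1, AGRN and MMP15. The share of members called, 10 of 41, is near that of all features. By role, integrins accounted for 5 of the 6 lower members and for 11 of the 41 members tested. Their median GC content was 42.9%, against 52.3% over the tested members. No call fell among the 5 interstitial collagens, 3 matrix glycoproteins, 2 TIMPs and 2 lysyl oxidases tested, which are too few to set against the shares of all features.

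**Figure D2:**
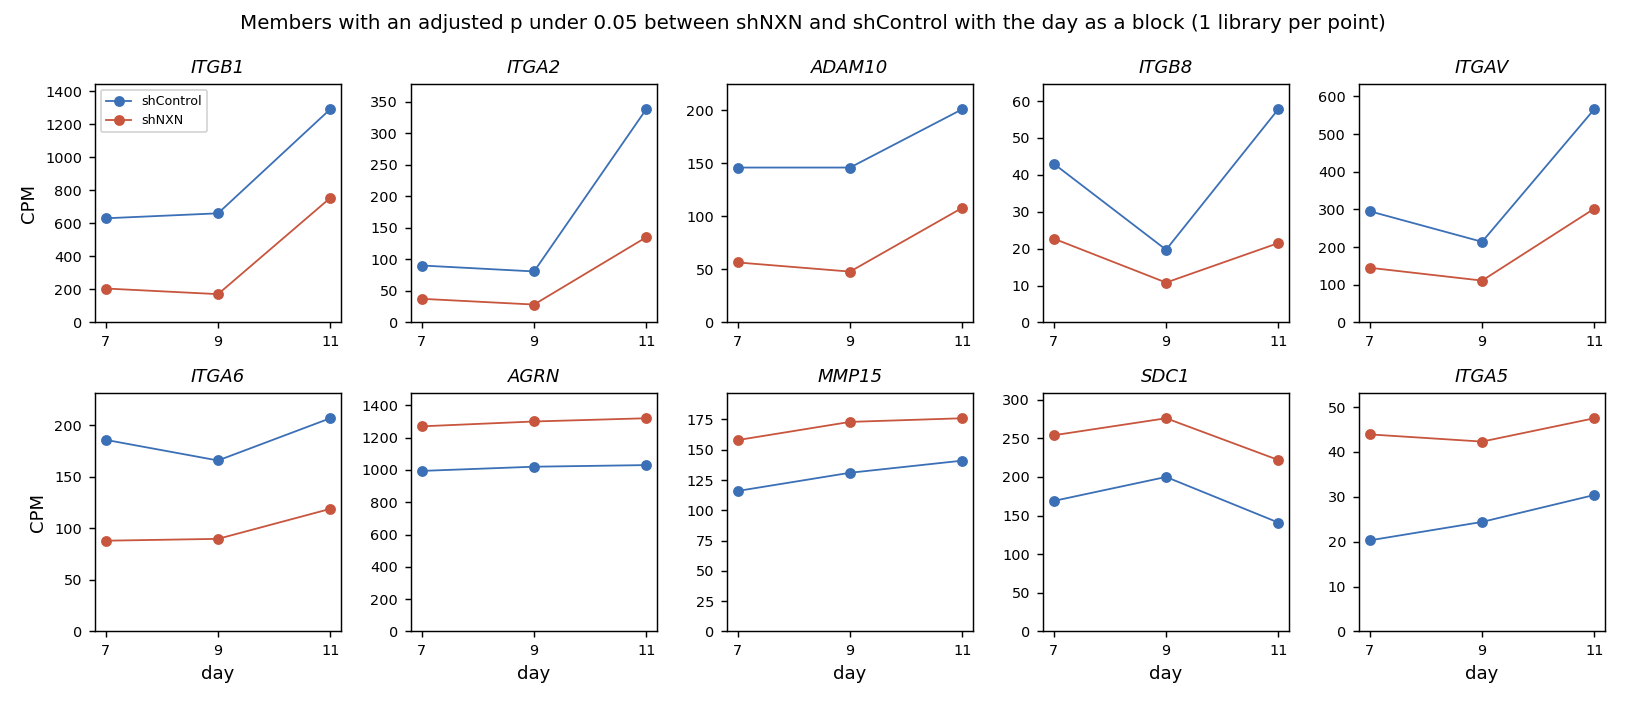
CPM of the 10 members with an adjusted p under 0.05 in the fit with the day as a block, against day, with 1 library per point, blue for shControl and red for shNXN, ordered by log2 fold change. In each panel the shNXN library of a day is on the same side of the shControl library on all 3 days, below it in the first 6 panels and above it in the last 4.

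Among the lower members, ITGB1 (chr10:32900319-33005792, minus strand) was at 630, 660 and 1290 CPM in shControl and at 205, 171 and 753 CPM in shNXN. It was lower on each day, although the shNXN library of day 11 exceeded the shControl libraries of days 7 and 9. The log2 fold change with the block was -1.45 (SE 0.24, edgeR adjusted p = 0.0220), and -1.19 without it (edgeR adjusted p = 0.202).
ITGA2 (chr5:52989326-53094779), which pairs with ITGB1 as a collagen receptor, was at 90.2, 80.8 and 338 CPM in shControl and at 37.4, 28.3 and 135 CPM in shNXN. The within-day log2 differences of -1.26, -1.50 and -1.32 were close to each other, and the blocked value was -1.37 (SE 0.11, edgeR adjusted p = 0.0142, against 0.249 without the block).
ITGAV (chr2:186590065-186680901), the alpha chain of the vitronectin and latent TGF-beta receptors, was at 295, 214 and 566 CPM in shControl and at 145, 111 and 302 CPM in shNXN. Its blocked log2 fold change was -0.96 (SE 0.09, edgeR adjusted p = 0.0142, against 0.199 without the block).
ITGB8 (chr7:20330702-20415754), a partner of ITGAV that binds latent TGF-beta, was at 43.0, 19.7 and 57.8 CPM in shControl and at 22.7, 10.8 and 21.5 CPM in shNXN. The groups overlapped, and the blocked log2 fold change was -1.07 (SE 0.17, edgeR adjusted p = 0.0213, against 0.130 without the block).
ADAM10 (chr15:58588807-58749978, minus strand), a sheddase that cuts surface proteins such as Notch and cadherins, was at 146, 146 and 201 CPM in shControl and at 56.5, 47.9 and 108 CPM in shNXN. The groups did not overlap on this scale, and the blocked log2 fold change was -1.29 (SE 0.16, edgeR adjusted p = 0.0156, against 0.0700 without the block).

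Without the block, several of these values moved with the day 11 libraries. Leaving out shControl day 11 gave log2 fold changes of -0.75 for ITGB1, -0.32 for ITGA2, -0.41 for ITGAV and -0.72 for ITGB8. Leaving out shNXN day 11 gave -2.19, -2.37, -1.48 and -1.26. In this second fit ITGB1, ITGA2, ITGAV and ADAM10 were called (edgeR adjusted p = 0.00544, 0.0413, 0.0383 and 0.00228). They were among 8 of the 41 members, and 3706 features of the whole table were called with them.

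The higher members changed by less. ITGA5 (chr12:54395261-54419460, minus strand) was at 20.3, 24.4 and 30.4 CPM in shControl and at 43.9, 42.3 and 47.5 CPM in shNXN, without overlap. With the block its log2 fold change was 0.85 (SE 0.15, edgeR adjusted p = 0.0247, against 0.0584 without it).
SDC1 (chr2:20200797-20225433, minus strand), the main epithelial syndecan, was at 169, 200 and 141 CPM in shControl and at 254, 276 and 222 CPM in shNXN. The groups did not overlap, and the blocked log2 fold change was 0.57 (SE 0.10, edgeR adjusted p = 0.0234, against 0.0814 without the block).
AGRN (chr1:1020123-1056118) was at 994, 1020 and 1030 CPM in shControl and at 1270, 1300 and 1320 CPM in shNXN. It was the steadiest of the 10, with within-day log2 differences of 0.35, 0.35 and 0.36 (blocked edgeR adjusted p = 0.0438, against 0.0815 without the block).
MMP15 (chr16:58025566-58046901), a membrane-type metalloprotease, was at 116, 131 and 141 CPM in shControl and at 158, 173 and 176 CPM in shNXN. The groups did not overlap, and the blocked log2 fold change was 0.39 (SE 0.10, edgeR adjusted p = 0.0444, against 0.102 without the block).
DESeq2 called these 4 and, among the lower members, ITGA6 and ADAM10, with 23.5% of all features called, 6.74% higher and 16.8% lower.

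Over the 41 members, the 2 groups did not overlap in CPM for 6 that were higher in shNXN (ITGA5, SDC1, AGRN, MMP15, COL4A1 and COL6A2) and 3 that were lower (ITGA6, ADAM10 and ADAM17), against 19.0% of all features higher and 21.5% lower. In FPKM the groups overlapped for 3 of these 9, COL4A1, ADAM10 and ADAM17. COL6A2 had 4, 14 and 14 counts in shControl and 74, 17 and 22 in shNXN, so that it passed the filter through the shNXN libraries, and its difference rested mostly on day 7 (edgeR adjusted p = 0.130). The other highest genes of the matrix roles did not pass the test. FN1 was at 3910, 4450 and 3700 CPM in shControl and at 4630, 3830 and 4830 CPM in shNXN, with a log2 fold change of 0.14 (edgeR adjusted p = 0.502). LAMC1 was at 571, 573 and 611 CPM in shControl and at 606, 535 and 718 CPM in shNXN (log2 fold change 0.08, edgeR adjusted p = 0.699). COL4A1 and COL4A2, which share the promoter printed above, had log2 fold changes of 0.31 and 0.33 (edgeR adjusted p = 0.218 and 0.256). With the GC correction described below these were -0.01 and -0.05. Their day 11 minus day 7 log2 differences were 0.22 and -0.46 in shControl and -0.04 and -0.4 in shNXN. MMP14 was at 239, 254 and 220 CPM in shControl and at 329, 317 and 242 CPM in shNXN (log2 fold change 0.32, edgeR adjusted p = 0.194). SDC4 was at 426, 258 and 285 CPM in shControl and at 560, 436 and 333 CPM in shNXN (log2 fold change 0.46, edgeR adjusted p = 0.244). The inhibitors TIMP1 and TIMP2 had log2 fold changes of 0.15 and -0.09 (edgeR adjusted p = 0.753 and 0.693).

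The fold changes moved with the GC content of the transcripts. Across the 12740 tested features with a GC value, Spearman's rho between log2 fold change and GC content was 0.79, and across the 41 members it was 0.54, in each case across genes of the same libraries, which are not independent. The 6 members lower with the block had a median GC content of 39.1% and the 4 higher ones 63.0%, against 48.4% over all tested features. The stretches printed above, at 38.3% for ITGB8 and ITGAV, 66.7% for MMP15 and 68.3% for AGRN, were picked for their GC content. They are therefore no test of the trend. Of the called members not shown, ITGA5 and SDC1 had transcripts of 54.5% and 60.1% GC. When each library's GC trend was removed, no member was called (0.0355% of all features were, 0.00711% higher and 0.0284% lower), and the median of the members was -0.04. ITGA6 then had a log2 fold change of -0.35 (edgeR adjusted p = 0.224), ITGA5 0.53 (0.240), ITGAV 0.14 (0.878), ITGB8 0.09 (0.939), AGRN -0.12 (0.849) and MMP15 -0.07 (0.930). The values of ITGA2, ITGB1, ADAM10 and SDC1 were -0.57, -0.42, -0.15 and 0.21. With the block and the GC correction together, 2 members were called, both higher, and 0.924% of all features were (0.54% higher and 0.384% lower). They were FN1 with a log2 fold change of 0.79 (edgeR adjusted p = 0.0473) and LOX, the founding lysyl oxidase, with 1.48 (edgeR adjusted p = 0.0432). LOX was at 48.7, 37.2 and 38.5 CPM in shControl and at 84.5, 43.7 and 53.0 CPM in shNXN, and its transcript is 39.6% GC. Uncorrected, its log2 fold change was 0.54 (edgeR adjusted p = 0.197), or 0.50 with the block (0.0652), and that of FN1 was 0.14 with the block or without it. The correction removes any group difference that follows GC content, whatever its origin, and what set the trend was not tested.

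The counts and the FPKM values of the same libraries did not give the same difference for every member. On the log2(FPKM + 1) scale, where the median of all features was 0.13, no member had an adjusted p under 0.05 from limma. Of all 14071 features 287 did, a share at which few or none of 41 members would be called. For 9 of the 41 members the 2 scales differed by more than 0.4. ADAM10 showed the widest reversal, from -1.21 in counts to 0.13 in FPKM, where it was at 53.04, 102.50 and 63.10 FPKM in shControl and at 78.79, 69.93 and 82.37 FPKM in shNXN. The transcript length implied by the ratio of the 2 values was 2.44 ± 0.915 kb in shControl and 0.899 ± 0.318 kb in shNXN (SD, n = 3). For ITGB1 the difference was -1.19 in counts and -0.44 in FPKM, with implied lengths of 3.14 ± 0.123 and 1.74 ± 0.974 kb. LAMC1 moved from 0.08 to 0.57, with 5.33 ± 0.667 and 3.88 ± 1.19 kb. ITGA5 (0.83 and 0.77), AGRN (0.35 and 0.35), SDC1 (0.56 and 0.53), MMP15 (0.39 and 0.37), ITGAV (-0.95 and -0.86) and ITGA2 (-1.34 and -1.40) were nearly the same on both scales. ITGA6 was at -0.91 in counts and -0.56 in FPKM (limma adjusted p = 0.0792), and ITGB8 at -1.13 and -0.36.

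**Figure D3:**
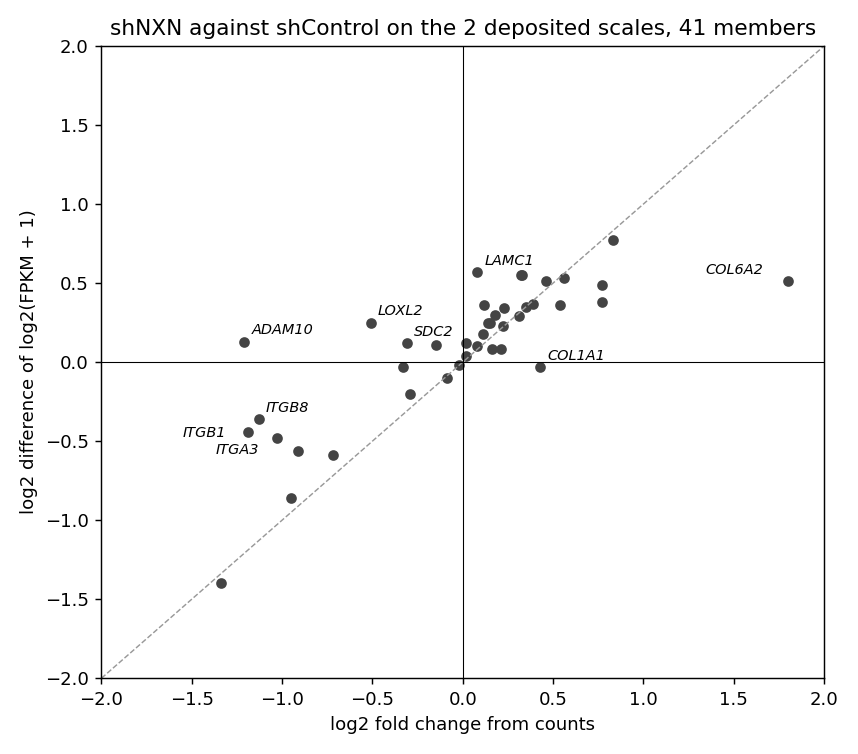
Difference between shNXN and shControl for the 41 tested members, as the log2 fold change from counts (horizontal axis) and as the difference of log2(FPKM + 1) (vertical axis), with the dashed line where both are equal. Named points differ by more than 0.4 between the scales. ADAM10, ITGB8, ITGB1, ITGA3, LOXL2 and SDC2 lie above the line on the left, with ADAM10, LOXL2 and SDC2 above 0 on the vertical axis. LAMC1 lies above the line on the right. COL6A2 and COL1A1 lie below it on the right, with COL1A1 just under 0 on the vertical axis.

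Between days, with the group as a covariate and 1 library per group and day, no member and no feature had an adjusted p under 0.05 from edgeR. At an unadjusted p under 0.05 there were 19 of the 41 members, against 21.4% of all features, and DESeq2 called 14 members, with 10.1% of all features called. Of the 11 integrins, DESeq2 called 7, namely ITGA1, ITGA2, ITGA3, ITGAV, ITGB1, ITGB4 and ITGB8. It called no TIMP, 1 protease (ADAM10) and the syndecans SDC2 and SDC4. In both groups 20 members were highest on day 11 (28.4% of all features were) and 6 were lowest (23.3%). After GC correction ITGA2 had an adjusted p of 0.0474 from edgeR, with 0.178% of all features called.

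**Figure D4:**
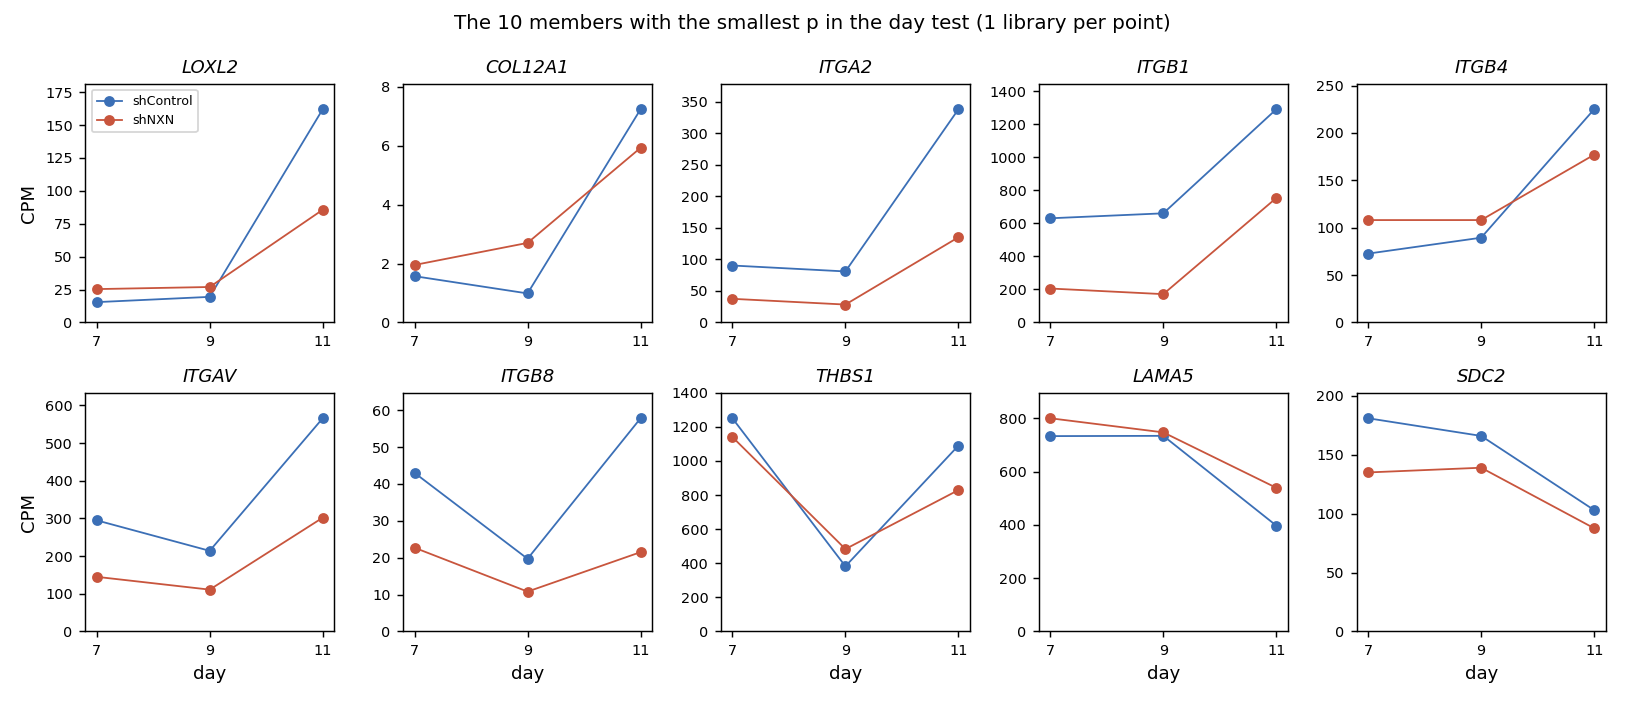
CPM of the 10 members with the smallest p in the day test, against day, with 1 library per point, blue for shControl and red for shNXN, ordered by the day 11 against day 7 difference. LOXL2, COL12A1, ITGA2, ITGB1, ITGB4 and ITGAV are highest on day 11 in both groups, THBS1 and ITGB8 are lowest on day 9, and LAMA5 and SDC2 are lowest on day 11.

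The integrin chains with the largest differences between day 11 and day 7 were highest on day 11. ITGA2 was on day 11 above both earlier days in each group (values above), a log2 difference of 1.88 from day 7 (SE 0.13) with an adjusted p of 0.0745 for the day test from edgeR. ITGB1 and ITGAV differed by 1.49 (SE 0.29) and 1.0 (SE 0.12) between day 11 and day 7. ITGB4 differed by 1.17 (SE 0.24), and ITGA3, at 10.1, 9.23 and 38.5 CPM in shControl and 5.90, 9.44 and 13.0 CPM in shNXN, by 1.59 (SE 0.40). ITGA6, which differed between the groups, differed by 0.29 (SE 0.13) between days 11 and 7.

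LOXL2 (chr8:23297189-23425328, minus strand), which crosslinks collagen IV among other substrates, had the largest difference of the members between days 11 and 7. It was at 15.4, 19.4 and 162 CPM in shControl and at 25.3, 26.9 and 85.6 CPM in shNXN, a log2 difference of 2.62 (SE 0.44, adjusted p of the day test 0.125 from edgeR). The shNXN libraries were above shControl on days 7 and 9 and below it on day 11. COL12A1, a collagen that associates with fibrils, was at 1.57, 0.984 and 7.24 CPM in shControl and at 1.95, 2.70 and 5.93 CPM in shNXN (log2 difference 1.94, SE 0.47).

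THBS1 had a dip on day 9. It was at 1250, 382 and 1090 CPM in shControl and at 1140, 483 and 829 CPM in shNXN, a log2 difference of -1.46 between day 9 and day 7 (SE 0.20, adjusted p of the day test 0.124 from edgeR). ITGB8 had its lowest value on day 9 in both groups as well, with -1.10 (SE 0.21). LAMA5 and SDC2 were lowest on day 11. LAMA5 was at 733, 734 and 397 CPM in shControl and at 800, 747 and 539 CPM in shNXN, and SDC2 at 181, 166 and 103 CPM in shControl and at 135, 139 and 87.6 CPM in shNXN, each with a log2 difference of -0.72 between days 11 and 7 (adjusted p of the day test 0.145 and 0.138 from edgeR). With 1 library per group and day the full interaction of day and group leaves no residual degrees of freedom, and whether the day course differed between the groups was not tested.

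Genes that make, bind or cut the same matrix were counted from 5 further lists, in which 118 of 175 genes were tested. Without the block 3 were called, all lower and each with an adjusted p of 0.0492 from edgeR, a share near that of all features (3.39% called, 3.21% lower). PLOD2, a lysyl hydroxylase that prepares collagen for crosslinking, was at 98.0, 94.3 and 96.9 CPM in shControl and at 34.2, 18.6 and 45.9 CPM in shNXN (log2 fold change -1.55). FBN1, which encodes the microfibril protein fibrillin 1, was at 28.1, 34.8 and 28.8 CPM in shControl and at 5.90, 5.76 and 13.7 CPM in shNXN (log2 fold change -1.85). FERMT2 (kindlin 2), which activates integrins from inside the cell, was at 31.5, 30.0 and 35.5 CPM in shControl and at 8.03, 6.44 and 15.5 CPM in shNXN (log2 fold change -1.70). For each of these 3 genes the groups did not overlap. The same held for 13 of the 118 genes, lower in shNXN, and for 21.5% of all features. These 3 were picked by their p-values, so their lack of overlap is no further support.

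With the block 10 of the 118 were higher and 9 lower, against 6.28% and 17.0% of all features. Of 22 genes of collagen processing 3 were higher, COLGALT1 among them (log2 fold change 0.41, blocked edgeR adjusted p = 0.0401), and 2 lower (PLOD2 and TLL1). Of 25 other matrix genes 2 were higher, FBLN1 and VTN (fibulin 1 and vitronectin, 0.59 and 0.45), and 1 was lower (FBN1). Of 17 other integrins and matrix receptors 1 was higher and 2 were lower, DDR2, a collagen-binding receptor kinase, and CD47. DDR2 was low, at 1.84, 2.15 and 0.92 CPM in shControl and 0.669, 0.674 and 0.451 CPM in shNXN. TLL1 was low too, at 1.7, 1.6 and 0.981 CPM in shControl and 0.426, 0.613 and 0.451 CPM in shNXN. Of 25 genes of the integrin adhesion complex 3 were higher, TNS2 among them, and 1 was lower (FERMT2). Of 29 other proteases and inhibitors 1 was higher and 3 were lower, among them ADAM9 (-0.96) and PLAU (urokinase, -0.84). None of the 118 was called after GC correction, with the block or without it, and FBN1 kept a log2 fold change of -1.78 (edgeR adjusted p = 0.0813) where PLOD2 went to -0.14 (0.848) and FERMT2 to -0.46 (0.251).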

How the data were processed

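RNA from 6 Hep3B samples was made into libraries with a SMARTER mRNA-Seq kit, per the labels. The authors deposited an estimated count per feature and library, and an FPKM table of the same features, in which values also depend on the transcript lengths used. The aligner, the counting program and the annotation are not given in the sources used here. The submitters' processing notes name the mouse builds GRCm38 and mm10, whereas the identifiers are human Ensembl identifiers, so positions were taken from GENCODE 29 (GRCh38) by identifier. Of 20314 Ensembl identifiers, 19433 had a symbol, and 3981 features had 0 counts in every library.

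Rounded counts were passed to edgeR 4.0.16 in R 4.3.3 (TMM factors, filterByExpr, quasi-likelihood test, Benjamini-Hochberg adjusted p under 0.05) over all features, by group, and by day with group as covariate. Alternatives were other scaling (RLE, or none beyond library size), other filters (none, or a minimum of 10 counts per library), DESeq2 1.42.0, limma 3.58.1 on log2(FPKM + 1) and log2(FPKM + 0.1), a GC correction (a natural spline with 5 degrees of freedom per library as offset), the day as a block, both together, and each library left out. Within-day differences used log2(CPM + 0.5). Labels give each replicate number its day, and the deviations of same-day libraries from their group means correlated at 0.304, 0.309 and 0.451, against -0.368 to 0.148 for different days, so the numbers were taken as pairs. Replicates differed by more than sampling noise (chi-square per feature 20.1 to 77.8). On simulated data with 200 of 14071 genes changed, the group test recovered 69% (92% at a log2 change of 2 and 46% at 1, with 9 false calls). The day test recovered 53% (84% and 22%, with 10 false calls). The simulated spread was estimated with day and group in the model, and no other day effect or GC trend was put in. These shares check the code and do not give the power or the false calls in the real libraries.

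The members and lists were chosen with earlier results of these data known. The selection rule for genes to follow by library took the 3 with the highest mean FPKM in each role and NXN. It also took those called by group or, for the block only, the 12 with the largest fold change, and the 10 with the smallest p by day. Of these, COL18A1, COL1A1, COL5A2, SPP1, ITGB5, TIMP1 and TIMP2 are given by averages or differences only. Other members are given by counts or ranges, and ITGA3, COL6A2 and others outside this rule were chosen after their values were seen. P3H3, MMP28 and PECAM1 were not analysed here.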

Additional observations from a re-analysis of the deposited data

Results flagged for a closer look

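The interaction of day and group was not tested, and each difference below is a description of single libraries. For 10 tested members under the selection rule, the shNXN library was above the shControl library on some days and below it on others. The within-day log2 differences, shNXN minus shControl on days 7, 9 and 11, spanned 1.61 for LOXL2 (0.70, 0.46 and -0.91), 1.38 for COL12A1 (0.24, 1.11 and -0.27), 0.93 for ITGB4 (0.58, 0.27 and -0.35) and 0.73 for THBS1 (-0.14, 0.34 and -0.39). LOXL2, COL12A1 and ITGB4 were thus lower in shNXN on day 11 alone. They spanned 0.66 for COL1A1 (0.57, 0.58 and -0.08), 0.6 for COL5A2 (0.15, 0.38 and -0.22), 0.6 for FN1 (0.24, -0.22 and 0.38) and 0.52 for TIMP1 (0.32, 0.39 and -0.13). The spans were 0.33 for LAMC1 and 0.26 for TIMP2. From day 7 to day 11 ITGB8 had a log2 difference of 0.42 in shControl and -0.07 in shNXN, a gap of 0.49.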

How the results depend on the processing

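The number of features called between the groups, 477, was 3272 with the replicate block, 5 with GC correction, 130 with both, 826 under RLE scaling, 929 under library size scaling, 818 without a filter, 3311 with DESeq2, and 287 and 66 with limma on log2(FPKM + 1) and log2(FPKM + 0.1), and it ran from 0 to 3706 when 1 library was left out, the latter without shNXN day 11. Members called, 1, became 10, 0, 2, 2 (RLE), 2 (library size), 6 (DESeq2) and 0 on both FPKM scales, and 0 to 8 with 1 library left out. Their median log2 fold change, 0.12, was -0.04 with GC correction, -0.03 with block and GC correction, 0.17 without a filter, 0.18 and 0.23 on the FPKM scales, and 0.05 to 0.21 with 1 library left out. Between days, 0 features and 0 members became 25 and 1 with GC correction, 302 and 5 without a filter and 1415 and 14 with DESeq2, and ran from 0 to 1595 and from 0 to 9 with 1 library left out, the highest without shControl day 11.

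Named group differences reversed mostly under GC correction, where the cause was not tested. With it, and then with the block as well, the log2 fold change was -0.12 and -0.09 for AGRN, -0.23 and -0.22 for COL18A1, 0.14 and 0.18 for ITGAV, -0.44 and -0.23 for ITGB4, -0.08 and -0.08 for ITGB5, 0.09 and 0.11 for ITGB8, -0.23 and -0.23 for LAMA5, -0.04 and -0.05 for MMP14, -0.07 and -0.03 for MMP15, 0.17 and 0.13 for SDC2, 0.06 and 0.16 for THBS1, and -0.20 and -0.15 for TIMP1. On the 2 FPKM scales it was 0.13 and 0.13 for ADAM10, -0.03 and -0.06 for COL1A1, 0.25 and 0.31 for LOXL2, 0.12 and 0.12 for SDC2, and 0.11 and 0.11 for THBS1. LOXL2 was at 0.08 with the block. With 1 library left out, the range was -0.49 to 1.5 for COL12A1, -0.04 to 0.27 for COL5A2, -0.26 to 0.74 for ITGB4, -0.01 to 0.34 for LAMA5, -0.04 to 0.18 for LAMC1, -1.33 to 1.44 for LOXL2, -0.49 to 0.16 for THBS1, -0.05 to 0.57 for TIMP1 and -0.18 to 0.06 for TIMP2. The day 11 against day 7 difference of ITGB8, 0.19, was -0.23 with GC correction, -0.23 and -0.25 on the FPKM scales, and -0.18 to 0.45 with 1 library left out. In the group fits that left out 1 library, LOXL2 was above 0 only without shControl day 11.

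Depth limits the 12 members that did not pass the filter, for which a group difference was not detectable. With 3 libraries per group and 1 per day, the lone library of a left-out fit is assumed to vary like the others. The rank of members by level was taken from FPKM, and the transcript lengths behind it are not given in the sources used here.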
